A study of Mus musculus with 2 samples.

Results

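The genes described are 9 transcription factors known from the mesenchyme around the eye, *Foxc1*, *Foxc2*, *Foxl2*, *Osr1*, *Twist1*, *Twist2*, *Prrx1*, *Tbx18* and *Irx1*. They were chosen by symbol, and each of the 9 was listed once among the 32285 genes of the files. Single cells of mouse eye cups at E17.5 were counted in 1 library of Myrf humWT/humWT and 1 library of Myrf humdG/humdG embryos. In each allele the last exon of *Myrf* is the human one, so the humWT library is not of unmodified mice, and humdG differs from humWT by a variant in the C-terminal coding part. By the labels, each library pooled 3 eye cups without the cornea, and they name a conditional Myrf fl/fl cross with Rx>cre. In contrast, the study's methods give 3 mice and 6 eyes and leave the cornea on, and the dissection and pooling of these libraries are uncertain. With 1 library per genotype there is no replicate error, no test was made between genotypes or cell groups, and each 95% interval given covers counting error only.

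Periocular mesenchyme arises from cranial neural crest and head mesoderm and gives rise to the stroma and endothelium of the cornea, the outflow tissues of the anterior chamber, the sclera, and connective tissue of the eyelids and orbit. FOXC1 and FOXC2 are related forkhead factors required in it for the anterior segment of the eye, and FOXL2 is a forkhead factor required in the eyelid and the ovary. OSR1 is a zinc-finger factor of connective tissue progenitors, TWIST1 and TWIST2 are basic helix-loop-helix factors of undifferentiated mesenchyme, PRRX1 is a homeodomain factor of craniofacial and limb mesenchyme, TBX18 is a T-box factor known from the epicardium and mural cells, and IRX1 is an Iroquois homeodomain factor.

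The members include a pair of forkhead paralogs, *Foxc1* and *Foxc2*, and a pair of *Twist* paralogs. *Foxc1* lies at chr13:31806633-31812476 and *Foxc2* at chr8:121116171-121118895 of GRCm38 (GENCODE M21), each a single-exon gene on the plus strand. *Twist1* (chr12:33957671-33959829) and *Twist2* (chr1:91801461-91848028) also lie on the plus strand, with their coding sequence in 1 exon each. The 180 coding bases in which *Twist1* and *Twist2* are most alike are printed 5′ to 3′, with the bases that differ between them in capitals.
*Twist1* (chr12:33958284-33958463): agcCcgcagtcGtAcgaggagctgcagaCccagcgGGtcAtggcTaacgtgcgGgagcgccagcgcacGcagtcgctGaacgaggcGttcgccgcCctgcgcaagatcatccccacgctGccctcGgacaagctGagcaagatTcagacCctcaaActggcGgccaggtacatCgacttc
*Twist2* (chr1:91801795-91801974): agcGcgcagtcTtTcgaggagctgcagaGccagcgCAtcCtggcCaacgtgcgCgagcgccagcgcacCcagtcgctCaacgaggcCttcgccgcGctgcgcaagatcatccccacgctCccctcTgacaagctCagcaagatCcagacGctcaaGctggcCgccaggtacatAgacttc
*Twist1* and *Twist2* were 88.3% identical over these bases, with 21 differences, 16 of them at the third codon position, and a longest shared run of 23 bases. The assay reads the 3′ end of transcripts, and these stretches ended 835 bases before the transcript end in *Twist1* and 815 in *Twist2*. Whether reads were split between the paralogs of either pair was not tested. *Foxl2* (chr9:98955288-98958543, plus strand, 1 exon) overlaps *Foxl2os* on the opposite strand, which had 271 UMIs in humWT and 84 in humdG. The other members were *Osr1* (chr12:9570116-9581500, plus strand), *Prrx1* (chr1:163245119-163313710), *Tbx18* (chr9:87702800-87731260) and *Irx1* (chr13:71957921-71963723), the last 3 on the minus strand.

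A UMI marks 1 captured transcript, so that amplified copies count once, and a level in CPM is the UMIs of a gene summed over the cells of a group per 1000000 UMIs of that group. After filtering, 16166 humWT and 18173 humdG cells remained (medians of 3785 and 2625 UMIs), and the libraries shared 102 barcodes. The members were kept out of the genes that formed the 25 clusters and out of the markers that named them. Counted as mesenchymal were 3 mesenchyme-like clusters, 1 cartilage-like, 1 tendon-like and 1 pericyte-like, with 4158 humWT cells (25.7% of cells, 37.0% of UMIs) and 1862 humdG cells (10.2% and 22.1%). These shares depend on the dissection, which cannot be told apart from genotype here. Of the mesenchyme-like clusters, 1 was led by *Pi16*, *Tnxb*, *Clec3b* and *Mfap5* (cluster 4, the Pi16 cluster) and 1 by *Spp1*, *Rgs5*, *Mgp* and *Aldh1a2* (cluster 7, the Spp1 cluster). *Rgs5* was 1 of the 8 pericyte markers, which summed to 1044 CPM in humWT and 1034 CPM in humdG in the Spp1 cluster, with none at 0. They summed to 278 and 306 CPM in the Pi16 cluster, where 1 was at 0 in humdG, and to 1219 and 1627 CPM in the pericyte-like cluster. Their part in the differences of the members between the Spp1 and Pi16 clusters was not tested. The Pi16 and Spp1 clusters were of similar depth: their median cell held 15239 and 16264 UMIs in humWT and 16534.5 and 18004.5 in humdG. The remaining mesenchyme-like cluster, led by *Col12a1* and *Postn* (cluster 10), was shallow, at 3272 and 2271 UMIs. The 10 mesenchyme markers, collagen genes and others, summed to 43347 and 37977 CPM in the Pi16 cluster and to 28745 and 25837 CPM in the Spp1 cluster, and none was at 0.

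All 9 members had most of their UMIs in mesenchymal clusters in both libraries. The lowest share was that of *Foxl2*, with 974 of 1834 humWT UMIs (53.1%, exact Clopper-Pearson interval 50.8% to 55.4%) and 362 of 604 humdG UMIs (59.9%, 55.9% to 63.9%). The highest in humWT was that of *Osr1*, with 2540 of 2874 UMIs (88.4%), whose interval overlapped that of *Irx1*. In humdG the shares of *Twist1*, with 2861 of 3283 (87.1%), *Osr1* (86.9%) and *Irx1* (86.9%) were the highest and their intervals overlapped. The median over the members was 74.4% in humWT and 81.4% in humdG. *Prrx1*, with 9869 and 4621 UMIs, had 70.4% and 80.8% of them there, and *Irx1* had 86.9% in each library.

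Relative to all other cells, the level in mesenchymal clusters was at least 2-fold higher for 8 of the 9 members in humWT, where 10.1% of the 19537 genes compared were that much higher. In humdG it was so for 9 of 9 members, against 12.4% of 19240 genes. The members were chosen as mesenchyme factors, with earlier results of these data known, so these counts are no independent support for their place. The humWT exception was *Foxl2*, at 22.0 CPM in mesenchymal and 11.4 CPM in other cells, a ratio of 1.93 (1.76 to 2.12). *Osr1* had the highest humWT ratio, 13.0 (11.6 to 14.6). In humdG the ratios of *Twist1* (23.9), *Osr1* (23.4) and *Irx1* (23.4) were the highest and their intervals overlapped. The ratio was higher in humdG for 9 of 9 members, and the level in other cells was lower there for 9 of 9. *Twist1*, for example, stood at 117 and 120.3 CPM in mesenchymal clusters but at 19.3 and 5.02 CPM in other cells. The share of all genes with these directions was not computed, so they are not shown to be particular to the members. Other cells include unnamed cluster 15, where the 10 mesenchyme markers summed to 22256 CPM in humWT and 1797 CPM in humdG.

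Free RNA of broken cells can give UMIs to cells that do not express a gene, so the members were also read in cells with globin markers (red blood cell-like), a type that should lack these factors. There *Prrx1* stood at 30.3 CPM in humWT and 10.2 in humdG, *Twist1* at 20.97 and 1.85, and *Foxc1* at 12.1 and 2.78. *Foxl2* stood at 9.79 CPM in humWT and had 0 UMIs in humdG, which allows up to 2.78 CPM. The summed level of 10 mesenchyme markers in the same cells was 3002 CPM in humWT and 903 CPM in humdG, so they were lower in humdG along with the members. Per cell, *Prrx1* had a UMI in 56.6% of humWT mesenchymal cells (median depth 6489.5 UMIs) and in 12.3% of humWT red blood cell-like cells (4157.5 UMIs). In humdG these shares were 54.0% and 4.64%, at 12365 and 4250 UMIs. Thinned to 1000 UMIs per cell, over 4152 humWT and 1857 humdG mesenchymal cells, they were 13.1% against 3.38% and 10.4% against 1.19%.

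**Figure D1:**
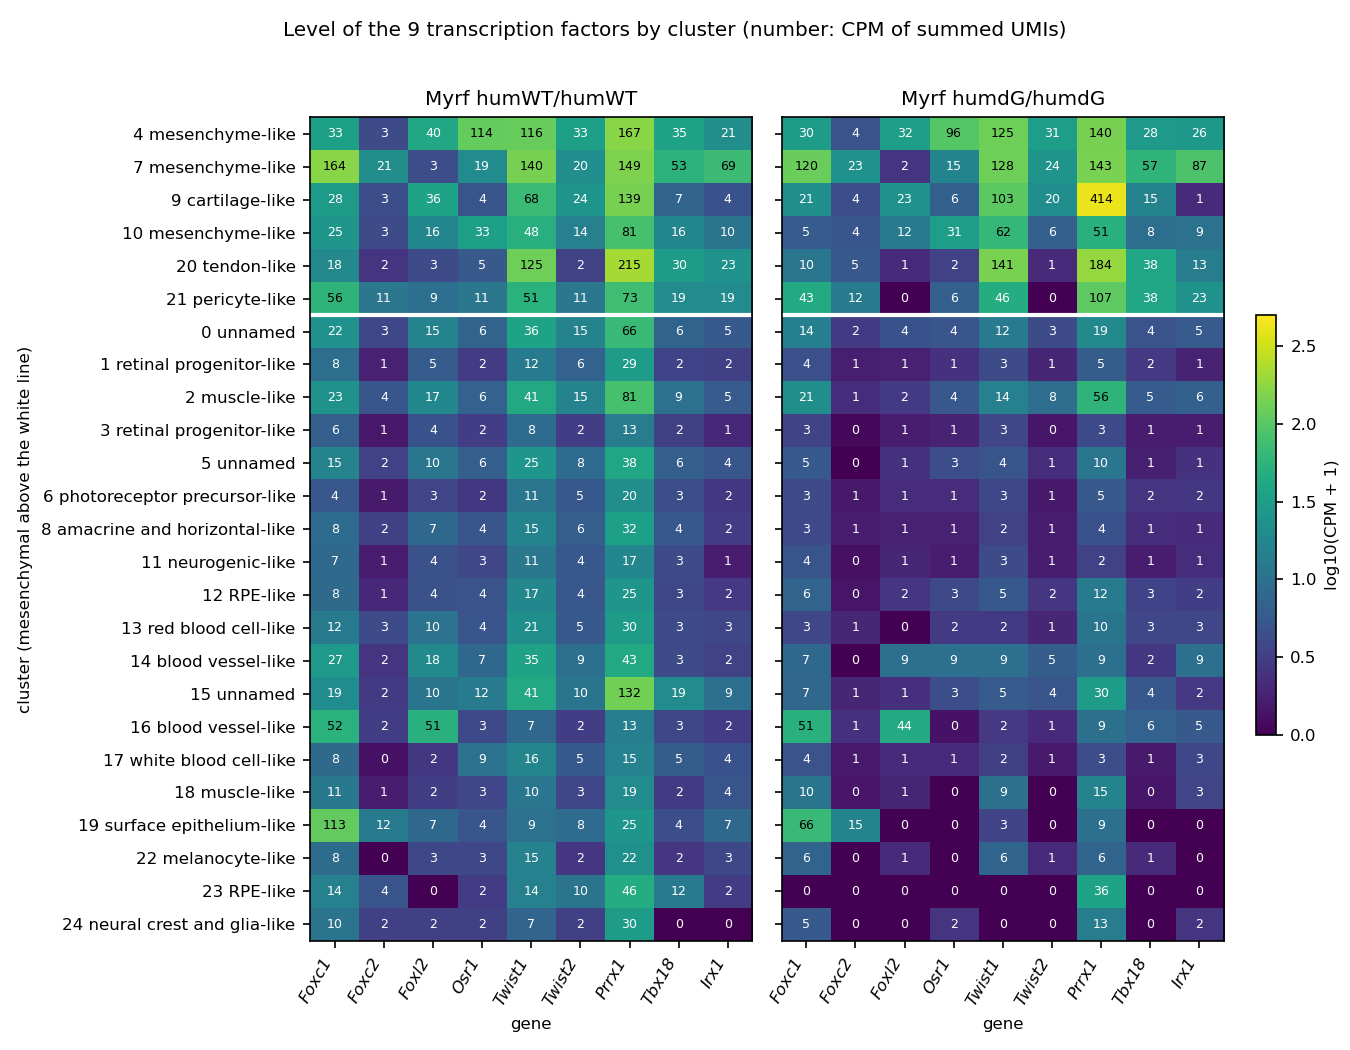
Level of each of the 9 genes in each of the 25 clusters, as CPM of summed UMIs, for the humWT library at left and the humdG library at right, with the colour on a log scale. The highest levels of *Twist1* and *Prrx1* lie in the mesenchymal clusters, and outside them *Foxc1* and *Foxl2* stand out in blood vessel-like cluster 16 and *Foxc1* in the surface epithelium-like cluster.

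*Twist1* and *Prrx1* were counted throughout the mesenchyme. The interval of their level lay above that of red blood cell-like cells in 6 of 6 mesenchymal clusters in both libraries, which held for no other member. *Twist1* stood at 116 CPM in the Pi16, 139.8 in the Spp1 and 125 in the tendon-like cluster of humWT, and at 125, 128 and 141 CPM in humdG. The 3 humdG levels had overlapping intervals. *Prrx1* stood at 167, 149 and 215 CPM in the same humWT clusters and at 140.1, 143 and 184 CPM in humdG. With all cells counted, it was highest of the 3 in tendon-like cells, beyond counting error, in both libraries. The humdG tendon-like cluster had 51 cells, 1 of which held 17 of the 159 *Prrx1* UMIs. Without that cell the level was 172 CPM, and whether it then stood beyond counting error was not computed. In the cartilage-like cluster *Prrx1* stood at 139 CPM in humWT and 414 CPM in humdG. The humdG value rests on few cells, since 6 of its 138 cells, each over 100000 UMIs, held 64.0% of the cluster's UMIs, and without them it was 281 CPM.

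*Twist2* was highest in the Pi16 cluster, at 32.7 CPM in humWT and 30.7 CPM in humdG, with the Spp1 cluster at 20.1 and 23.9 CPM. In tendon-like cells, where *Twist1* had 482 and 122 UMIs, *Twist2* had 9 UMIs (2.34 CPM, 1.07 to 4.44) in humWT and 1 UMI in humdG. Red blood cell-like cells of humWT stood at 4.66 CPM of *Twist2* (2.23 to 8.57), so *Twist2* was not detected above that level in humWT tendon-like cells.

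The Pi16 and Spp1 clusters separated the other members. *Foxc1*, *Foxc2* and *Irx1* were at least 2-fold higher in the Spp1 cluster and *Osr1* and *Foxl2* at least 2-fold lower, in both libraries. These were 3 members higher in humWT, against 7.24% of the 15885 genes compared, and 2 lower, against 7.77%. In humdG 4 members were higher, against 7.02% of 14572 genes, and 2 lower, against 7.1%. The additional humdG member was *Tbx18*, with a log2 ratio of 0.61 (0.46 to 0.76) in humWT and 1.04 (0.83 to 1.26) in humdG.

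*Foxc1* stood at 32.9 CPM in the Pi16 and 164 CPM in the Spp1 cluster of humWT, a ratio of 5.00 (4.57 to 5.47), and at 30.2 and 119.6 CPM in humdG, a ratio of 3.96 (3.47 to 4.53). Its paralog *Foxc2* had few counts, 58 UMIs in the Pi16 and 315 in the Spp1 cluster of humWT and 35 and 239 in humdG. Its levels were 3.10 and 20.5 CPM in humWT and 3.88 and 22.9 CPM in humdG, so both *Foxc* paralogs had the same direction. *Irx1* stood at 20.8 and 69.4 CPM in humWT and at 26.4 and 87.1 CPM in humdG. Per cell, *Foxc1* had a UMI in 33.1% of Pi16 and 79.1% of Spp1 cluster cells of humWT, and in 32.5% and 76.2% of humdG.

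*Osr1* had the reverse order, with 114 CPM in the Pi16 and 19.0 CPM in the Spp1 cluster of humWT and 95.8 and 15.4 CPM in humdG. *Foxl2* was lower still in the Spp1 cluster relative to the Pi16 cluster, at 39.6 and 3.39 CPM in humWT and 32.0 and 1.63 CPM in humdG. Its Spp1 cluster level lay below the humWT red blood cell-like level and under what 0 UMIs allows in humdG. It was thus not detected above that level, and the part of free RNA in it was not tested. *Twist1* and *Prrx1* differed little, with log2 ratios of 0.27 and −0.16 in humWT and 0.03 and 0.03 in humdG. *Twist2* stood at −0.70 and −0.37. The median over the members was 0.27 in humWT and 0.03 in humdG.

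**Figure D2:**
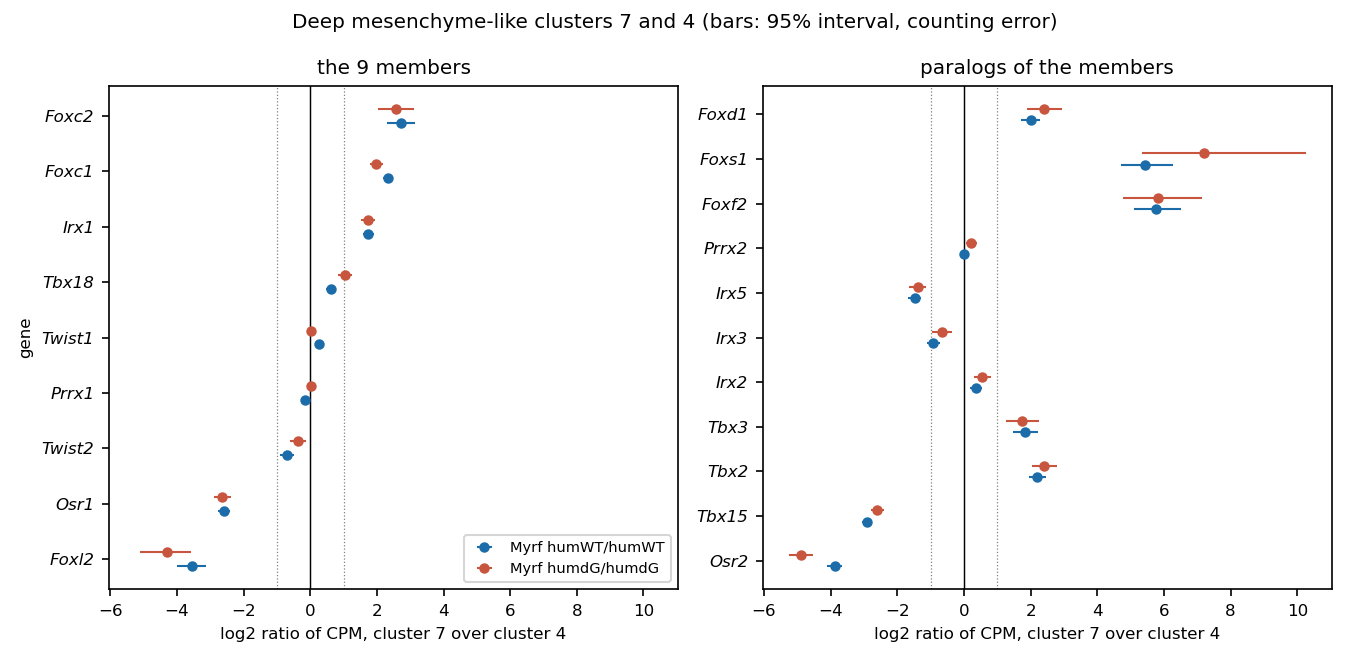
Log2 ratio of the level in the Spp1 cluster (7) over that in the Pi16 cluster (4) for the 9 genes at left and 11 of their paralogs at right, with 1 point per library, 95% counting intervals as bars and dotted lines at 2-fold. *Foxc2*, *Foxc1* and *Irx1* lie right of the upper 2-fold line and *Osr1* and *Foxl2* left of the lower one in both libraries.

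The smaller or shallower mesenchymal clusters carried other combinations. In the cartilage-like cluster *Foxl2* stood at 36.3 CPM (30.2 to 43.2) in humWT and 22.8 CPM (16.2 to 31.1) in humdG. The humWT interval overlapped that of the Pi16 cluster. Without its 6 cells over 100000 UMIs, the humdG level was 14.6 CPM (6.68 to 27.7, 9 UMIs), below the Pi16 interval. *Irx1* stood at 3.77 and 1.17 CPM and *Osr1* at 4.06 and 5.84 CPM. In the Col12a1 cluster *Osr1* had its next highest level after the Pi16 cluster, at 32.6 CPM (25.9 to 40.5) and 31.1 CPM (22.6 to 41.8). In the pericyte-like cluster *Foxc1* had 26 UMIs (55.7 CPM) in humWT and 15 (43.4 CPM) in humdG. *Tbx18*, known from mural cells, had 9 and 13 UMIs there, or 19.3 CPM (8.82 to 36.6) and 37.6 CPM (20.01 to 64.3), so its level was loosely bounded. In tendon-like cells *Tbx18* stood at 29.9 and 38.3 CPM, *Irx1* at 23.2 and 12.8 CPM and *Foxl2* at 3.12 and 1.16 CPM.

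Paralogs of the members also differed between these clusters. They were not held out of the clustering, so their values only describe the clusters. Of 20 listed paralogs and neighbours, 17 had enough UMIs to compare in humWT, of which 7 were at least 2-fold higher and 4 lower in the Spp1 cluster (median log2 ratio 0.52), and 16 in humdG, of which 8 were higher and 3 lower (median 0.99). *Osr2*, the paralog of *Osr1*, was lower in the Spp1 cluster, at log2 ratios of −3.88 and −4.89. *Tbx15*, the paralog of *Tbx18*, was lower as well, at −2.90 and −2.60, the opposite of *Tbx18*. *Irx5* was lower, at −1.48 and −1.39, where *Irx1* was higher, at 1.74 and 1.72. *Prrx2* differed little, like *Prrx1*, at −0.00 and 0.22.

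Of 27 other regulators of periocular mesenchyme and neural crest, 26 were compared, with 5 at least 2-fold higher and 5 lower in the Spp1 cluster of humWT and 10 and 5 in humdG. *Ebf2* was lower there, at log2 ratios of −3.41 and −3.47, and so was *Klf4*, at −2.54 and −2.61. Of the E proteins *Tcf3*, *Tcf4* and *Tcf12*, which pair with TWIST1 and TWIST2, 0 of 3 passed 2-fold in either library. In mesenchymal clusters over other cells, 8 of 20 paralogs and neighbours and 14 of 27 other regulators were at least 2-fold higher in humWT, and 10 and 16 in humdG, beside the 10.1% and 12.4% of all genes given above. At least 2-fold lower were 3 and 5 in humWT and 4 and 4 in humdG, beside 21.8% and 25.3% of all genes. The listed genes were counted without the minimum of 20 UMIs set for all genes, and were chosen with earlier results of these data known.

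Outside the mesenchyme, *Foxl2* and *Foxc1* were counted in vessel cells. *Foxl2* had its highest level in blood vessel-like cluster 16, at 51.2 CPM (45.9 to 56.9) in humWT and 43.6 CPM (36.2 to 52.1) in humdG, against 36.8 to 42.5 and 28.4 to 35.9 CPM in the Pi16 cluster. *Foxc1* stood at 52.5 and 51.1 CPM there. *Prrx1* in the same cells, at 13.2 and 8.94 CPM, was no higher than in red blood cell-like cells, and neither were the summed mesenchyme markers, at 2380.3 and 844 CPM. Per cell, *Foxl2* had a UMI in 37.2% of 296 humWT and 32.1% of 134 humdG cells of cluster 16 (median depths 14180 and 13228 UMIs), against 4.26% of 470 and 0 of 237 red blood cell-like cells, the latter allowing up to 1.27%. Without the 7 humWT and 5 humdG cells over 100000 UMIs, the *Foxl2* level in cluster 16 was 47.2 CPM (41.8 to 53.2) and 35.3 CPM (27.8 to 44.2), which overlapped the Pi16 interval in both libraries. In the shallower blood vessel-like cluster 14, *Foxl2* had 23 UMIs (18.2 CPM) in humWT and 5 (8.71 CPM) in humdG.

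The members were also counted per 100 *Prrx1* UMIs of the same cells, and the part of free RNA in these values was not tested. *Foxl2* had 14.0 per 100 *Prrx1* UMIs in mesenchymal clusters of humWT and 32.3 (18.8 to 53.5) in red blood cell-like cells. It had 388 (306 to 495) in cluster 16. In humdG it had 9.69 in mesenchymal clusters, 0 beside 11 *Prrx1* UMIs in red blood cell-like cells, and 488 (315 to 783) in cluster 16. *Foxc1* had 48.8 and 42.5 in mesenchymal clusters against 398 and 572 in cluster 16. *Twist1* was not raised in this way, with 74.5 and 76.6 in mesenchymal clusters and 53.9 (37.2 to 77.5) and, in humdG, 5 UMIs beside 25 *Prrx1* UMIs in cluster 16. The 110 humWT and 43 humdG cells of cluster 16 with a *Foxl2* UMI each had at least 3 of 8 vessel markers, with a median of 8. So did 183 of 186 and 91 of 91 cells without one, also with a median of 8. These markers named the cluster, so they do not set the cells with *Foxl2* apart. Summed mesenchyme markers were 1012 and 989.8 CPM in cells with a *Foxl2* UMI, against 4599 and 615 CPM in those without. Median depths were 27804.5 and 28771 against 8631 and 9076 UMIs.

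The surface epithelium-like cluster, led by *Krt15* and *Krt5*, ranked next to the Spp1 cluster in *Foxc1*, at 113 CPM (96.1 to 132) in humWT and 65.7 CPM (48.9 to 86.4) in humdG, where its interval overlapped that of cluster 16. These were 161 UMIs in 44 of 106 humWT cells and 51 UMIs in 16 of 113 humdG cells, whose median depth was 6449.5 and 2129 UMIs. A single cell held 14.3% of these UMIs in humWT and 15.7% in humdG. *Foxc2* stood there at 11.9 CPM (17 UMIs) and 15.5 CPM (12 UMIs), the only cluster outside the mesenchyme where its interval lay above the red blood cell-like one. Per 100 *Prrx1* UMIs, *Foxc1* had 447 (310.0 to 661) in humWT and 729 (329 to 1903) in humdG. None of the other 7 members lay above the red blood cell-like interval in this cluster.

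The shallow muscle-like cluster 2 and unnamed cluster 0, led by *Sncg* and *Cdk8*, also held *Foxc1* and *Twist1* above the red blood cell-like interval in both libraries. *Foxc1* stood at 23.2 and 20.96 CPM in cluster 2 and at 22.1 and 13.8 CPM in cluster 0, and *Twist1* at 41.1 and 14.0 CPM and at 35.8 and 12.0 CPM. *Prrx1* stood at 81.4 and 55.9 CPM in cluster 2, above that interval in both libraries, and at 66.2 and 18.6 CPM in cluster 0, above it in humWT. The summed mesenchyme markers also stood above their red blood cell-like level, at 6752 and 3585 CPM in cluster 2 and 5858 and 2503 CPM in cluster 0. Median depths were 2871 and 1948 UMIs in cluster 2 and 2268.5 and 1656.5 in cluster 0. Red blood cell-like cells were deeper, at 4157.5 and 4250 UMIs, so these CPM levels were not compared at equal depth. The part of depth, of free RNA or of mesenchymal cells in these values was not tested.

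**Figure D3:**
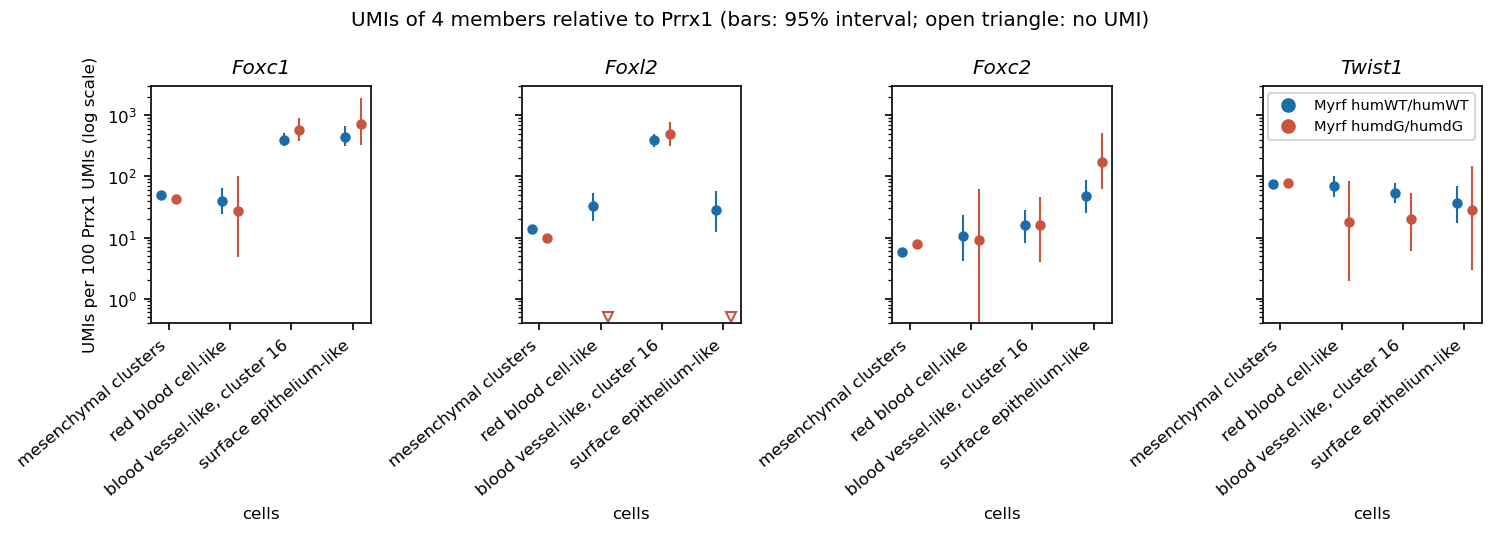
UMIs of *Foxc1*, *Foxl2*, *Foxc2* and *Twist1* per 100 *Prrx1* UMIs on a log axis in 4 groups of cells, with 1 point per library, 95% counting intervals as bars and an open triangle where no UMI was counted. *Foxc1* and *Foxl2* lie far above their mesenchymal ratio in blood vessel-like cluster 16 and *Twist1* does not.

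Single mesenchymal cells carried several of the factors. Among cells with at least 10000 UMIs, the median number of members with a UMI was 4 in mesenchymal and 0 in other cells in both libraries. At least 4 members were found in 66.1% of 1816 humWT and 63.9% of 1018 humdG mesenchymal cells, against 4.86% of 1912 and 0.943% of 2332 other cells. Among the latter, unnamed cluster 15 stood out, with at least 4 members in 42.1% of its 145 humWT and 13.4% of its 119 humdG cells, and without it the shares of other cells were 1.81% and 0.271%. The median depths were 17513.5 and 18354.5 UMIs in mesenchymal and 14817.5 and 13268.5 UMIs in other cells. All 9 members occurred together in 3 humWT cells, each in the tendon-like cluster, and in 0 humdG cells. In humWT, 7 of the 141 cells of that cluster were over 100000 UMIs and held 36.2% of its UMIs. The part of depth or of doublets in these 3 cells was not tested, nor was that of doublets in cluster 15 or in the other shares.

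Co-detection was taken as the number of cells with UMIs of both genes over the number expected if the genes were independent, after thinning every cell to the same number of UMIs. At 1000 UMIs the median over the 36 pairs in mesenchymal cells was 1.10 in humWT and 1.20 in humdG, and 1.01 and 1.04 when the expected number was taken within clusters. Few cells held both genes at that depth, so single pairs were read at 10000 UMIs, a depth chosen after seeing the data, where the medians were 0.996 and 0.998. The interval lay above 1 for 6 humWT and 4 humdG pairs and below 1 for 7 and 6. Within the Pi16 cluster it lay above 1 for 4 and 0 pairs and below 1 for 1 and 0. Within the Spp1 cluster these counts were 2 and 2 above and 0 and 0 below, each cluster having fewer cells. The share among pairs of other genes was not computed, so the counts are not shown to be particular to the members.

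The pairs followed the Pi16 and Spp1 clusters. *Foxl2* and *Osr1* were found together at 1.703 (1.47 to 1.97) times the expected number in humWT and 2.09 (1.64 to 2.63) times in humdG, and *Foxc1* and *Foxc2* at 1.52 and 1.43 times. *Foxc1* and *Foxl2* stood below the expected number, at 0.68 (0.55 to 0.83) and 0.57 (0.38 to 0.82), as did *Foxc2* and *Osr1*, at 0.43 and 0.46. As shares, 60.4% of humWT cells with *Foxl2* had *Osr1*, against 30.3% of those without *Foxl2*, and in humdG 60.3% against 24.6%. *Twist1* and *Prrx1* stood at 1.02 and 1.02.

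Within single clusters, the ratio of *Foxc1* and *Foxc2* in the Spp1 cluster was 1.00 in humWT and 0.99 in humdG. *Tbx18* and *Irx1* stayed above the expected number there, at 1.44 (1.21 to 1.71) and 1.39 (1.14 to 1.69), beside 1.496 and 1.48 over all mesenchymal cells. In the Spp1 cluster 57.4% of humWT and 63.8% of humdG cells with *Tbx18* had *Irx1*, against 31.1% and 36.7% of those without it. *Foxl2* and *Osr1* stood at 1.18 (1.01 to 1.36) and 1.28 (1.00 to 1.62) within the Pi16 cluster.

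**Figure D4:**
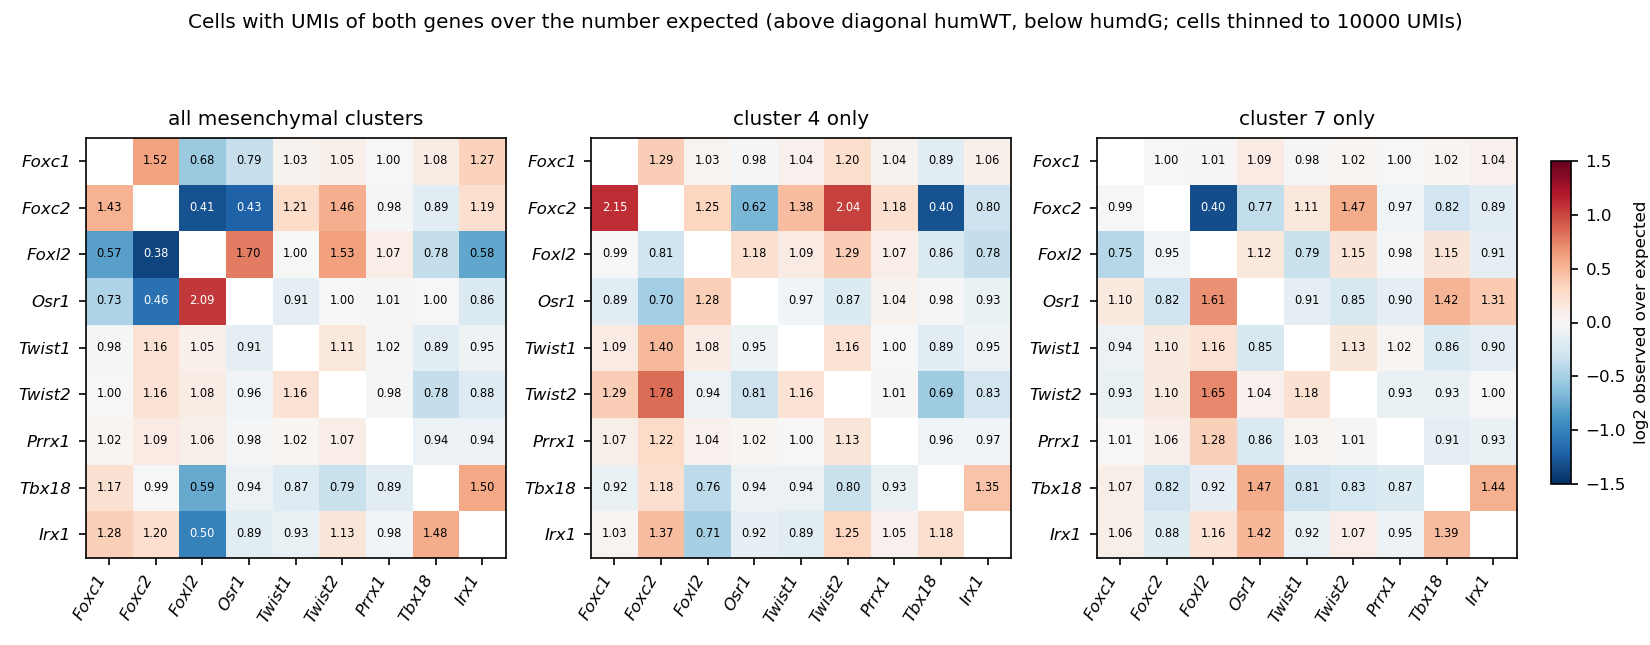
Number of cells with UMIs of both genes over the number expected for each pair of the 9 genes, with humWT above and humdG below the diagonal, cells thinned to 10000 UMIs and colour on a log2 scale, over all mesenchymal clusters at left, within the Pi16 cluster (4) in the middle and within the Spp1 cluster (7) at right. *Foxl2* with *Osr1* and *Tbx18* with *Irx1* are above 1 over all mesenchymal cells in both libraries.

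The members also sorted with mesenchymal programs, counted as cells with a UMI of at least 1 gene of the program after thinning to 1000 UMIs. Shares were taken over all mesenchymal cells, not within clusters. *Pi16*, *Mfap5* and *Clec3b* lead the Pi16 cluster and *Rgs5* the Spp1 cluster, so the shares may restate the split between these clusters. Orbital fibroblast genes (*Pi16*, *Dpp4*, *Cd34*, *Mfap5* and *Clec3b*) were found in 71.7% of humWT and 63.3% of humdG mesenchymal cells with *Osr1*, against 36.5% and 33.8% of those without. Pericyte genes (*Rgs5*, *Kcnj8*, *Abcc9*, *Pdgfrb* and *Cspg4*) were found in 27.8% and 32.6% of cells with *Foxc1*, against 19.0% and 21.2% of those without. For *Tbx18* these shares were 27.4% and 34.6% with, and 19.3% and 21.4% without. Bone genes (*Sp7*, *Ibsp*, *Alpl*, *Bglap* and *Spp1*), of which *Spp1* leads the Spp1 cluster, were found in 10.2% and 14.0% of cells with *Foxc1*, against 3.47% and 5.08% of those without. Genes of dividing cells (*Mki67*, *Top2a*, *Cdk1* and *Ccnb1*) were less frequent in cells with a member than in cells without it for 8 of 9 members in humWT, all but *Foxl2*, and for 9 of 9 in humdG. For *Osr1* the shares were 15.4% and 17.3% with it, against 24.1% and 26.8% without. Other gaps were small, as for *Prrx1* in humWT (23.4% against 23.8%) and *Foxl2* in humdG (25.2% against 26.5%). Intervals, and the share of other genes with the same direction, were not computed, so this is not shown to be particular to the members.

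Over the 25 clusters, which share the depth and background of their library, the humWT level of a member followed its humdG level with a Pearson correlation of log2(CPM + 10) between 0.85 (*Twist2*) and 0.96 (*Osr1*). Among pairs of members, *Twist1* and *Prrx1* were most alike by the lower of the libraries' correlations, 0.93 in humWT and 0.90 in humdG, followed by *Twist1* with *Tbx18* (0.88 and 0.90) and *Tbx18* with *Irx1* (0.92 and 0.87). Among 16822 other genes, *Twist1* was most like *Lox*, whose product crosslinks collagen (0.95 and 0.95), and *Prrx1* most like *Ddr2*, a collagen receptor gene (0.92 and 0.92). The gene most like *Osr1* was *Dpep1* (0.92 and 0.93), and the one most like *Tbx18* was *Irx2* (0.95 and 0.88). *Irx1* was closest to *Kazald1* (0.92 and 0.90), *Twist2* to *Prdm6* (0.92 and 0.92), *Foxc2* to *Ccdc68* (0.89 and 0.88) and *Foxc1* to *Aox3* (0.82 and 0.82). *Foxl2* was closest to *Tek*, the angiopoietin receptor gene of vessel cells (0.76 and 0.83).

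The promoters of *Twist1* and *Prrx1*, the members most alike in level over clusters, are printed from RefSeq (GRCm38.p6), 5′ to 3′ on the strand of the gene, from 250 bases before to 50 after the start, with CG dinucleotides in capitals.
*Twist1* (chr12:33957421-33957720): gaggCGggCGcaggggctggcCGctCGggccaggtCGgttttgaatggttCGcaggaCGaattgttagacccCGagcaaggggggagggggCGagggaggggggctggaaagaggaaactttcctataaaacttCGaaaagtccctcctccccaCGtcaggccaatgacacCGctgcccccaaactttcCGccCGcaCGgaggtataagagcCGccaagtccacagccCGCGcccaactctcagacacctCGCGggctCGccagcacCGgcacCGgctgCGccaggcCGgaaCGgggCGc
*Prrx1* (chr1:163313601-163313900): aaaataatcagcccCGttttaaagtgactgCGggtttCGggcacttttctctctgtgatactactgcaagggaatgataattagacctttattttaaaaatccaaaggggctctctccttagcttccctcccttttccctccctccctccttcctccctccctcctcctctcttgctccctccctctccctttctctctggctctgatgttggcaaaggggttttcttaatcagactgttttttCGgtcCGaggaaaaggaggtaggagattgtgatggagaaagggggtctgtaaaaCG
*Twist1* had 27 CG dinucleotides in these 300 bases and *Prrx1* had 6, where the median of 32851 promoters was 7. At least 27 were held by 15.5% of all promoters and at least 6 by 56.4%. Promoters of 6 of the 9 members were in the table, and *Foxc1* (32), *Foxl2* (27), *Twist2* (25) and *Tbx18* (15) were also above the median number.

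Between the libraries, levels summed over all mesenchymal clusters were within 2-fold for each member, as for most genes. Of the 9 members, 0 were at least 2-fold lower in humdG, against 2.78% of 17349 genes, and 0 at least 2-fold higher, against 2.08%. The median log2 ratio of humdG over humWT was 0.01 over the members and −0.02 over all genes compared. With the red blood cell-like level of each library subtracted, the members' median was 0.27. *Prrx1* stood at 157 and 157 CPM (log2 ratio 0.00, −0.06 to 0.06) and *Twist1* at 117 and 120.3 CPM (0.04, −0.02 to 0.11). Farthest from 0 were *Foxl2*, at 22.0 and 15.2 CPM (−0.53, −0.71 to −0.35), and *Irx1*, at 35.9 and 49.7 CPM (0.47, 0.36 to 0.58). These ratios are without subtraction. In red blood cell-like cells *Foxl2* stood at 9.79 CPM in humWT and had no UMI in humdG. After subtraction only the members' median was taken, so whether *Foxl2* would still be lower in humdG was not tested. *Foxc2* stood at 0.44 (0.22 to 0.66) and *Osr1* at −0.33 (−0.44 to −0.23). By cluster, the members' median was −0.55 in the Col12a1 cluster, against 0.13 for all genes, and −0.49 in the tendon-like cluster, against −0.12. Past 2-fold were 2 of 8 and 1 of 6 members compared there, against 8.93% and 8.58% of genes. In the cartilage-like cluster 2 of 7 were past 2-fold, against 26.3%, and in the Spp1 cluster 1 of 9, against 4.17%. The latter was *Foxl2*, with 52 UMIs in humWT and 17 in humdG, not detected above the red blood cell-like level of either library. In the Pi16 and pericyte-like clusters 0 of 9 and 0 of 4 were. The members' median was 0.52 in the cartilage-like and 0.20 in the pericyte-like cluster, against 0.55 and 0.12 for all genes. For the Pi16 and Spp1 clusters it was −0.12 and −0.06, against −0.09 in each. How far embryos of 1 genotype differ in these levels is unknown here.

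Clusters took different shares of the mesenchymal UMIs of each library. The humdG levels were therefore also weighted by the cluster mix of humWT, as shares of UMIs, an alternative chosen after seeing the data. The log2 ratio of *Irx1* was then 0.27, that of *Foxc2* 0.22, that of *Foxl2* −0.40 and that of *Osr1* −0.25. *Foxc1* moved from −0.20 to −0.41. Within the Spp1 cluster *Foxc1* stood at −0.46 (−0.56 to −0.36) and *Irx1* at 0.33 (0.20 to 0.46), and within the Pi16 cluster *Osr1* stood at −0.25 (−0.37 to −0.14), *Foxl2* at −0.31 (−0.51 to −0.11) and *Irx1* at 0.34 (0.11 to 0.58). The median of all genes compared was −0.09 in the Spp1 and −0.09 in the Pi16 cluster. No red blood cell-like level was subtracted from the ratios within clusters. In blood vessel-like cluster 16 *Foxc1* stood at −0.04 (−0.33 to 0.25) and *Foxl2* at −0.23 (−0.54 to 0.07).

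Outside the mesenchyme the members were mostly lower in humdG. The median log2 ratio of the members with at least 20 UMIs was below 0 in each of the 18 non-mesenchymal clusters compared, which leave out a melanocyte-like cluster whose leading genes held more markers of the pigment epithelium than its own, from −2.75 in the amacrine and horizontal-like cluster to −0.23 in blood vessel-like cluster 16. RPE-like cluster 23 and the neural crest and glia-like cluster rested on 1 member each. Members without a UMI in humdG were left out of these medians. The median over all genes was not taken in these clusters, so the lower levels are not shown to be particular to the members. In red blood cell-like cells 4 of 4 members were lower. Their median there was −2.12 without *Foxl2*, which had no UMI in humdG. The summed mesenchyme markers of those cells moved the same way, as given above, and the part of free RNA in the members' values outside the mesenchyme was not tested. In 1 unnamed cluster (15) the mesenchyme markers summed to 22256 CPM in humWT and 1797 CPM in humdG, and *Prrx1* stood at 132 and 29.8 CPM.

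**Figure D5:**
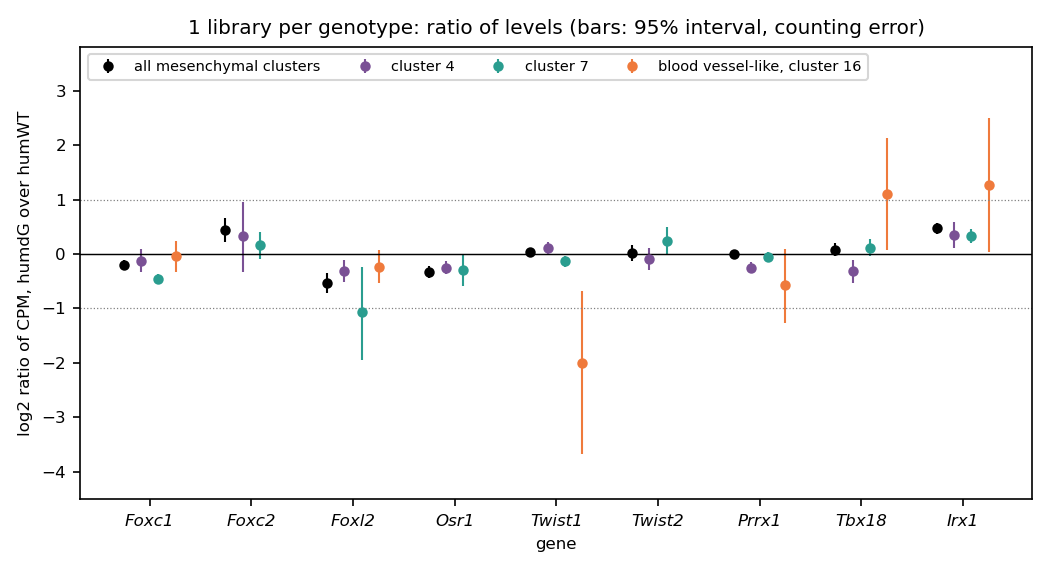
Log2 ratio of the humdG over the humWT level of each of the 9 genes over all mesenchymal clusters and within the Pi16 cluster (4), the Spp1 cluster (7) and blood vessel-like cluster 16, with 95% counting intervals as bars, dotted lines at 2-fold and genes with at most 3 UMIs in either library left out. Over all mesenchymal clusters the 9 points lie between −0.53 and 0.47.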

How the data were processed

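The authors deposited UMI counts per gene and cell for 1 library per genotype, made with Cell Ranger 7.1.0 on mm10, and their processing notes also name Seurat 4.1.1. The counts are not normalized. Cells with over 500 genes and under 15% mitochondrial UMIs were kept here. Scrublet called 1 and 0 doublets by its automatic limit, so instead the top 5% by score were dropped in each library. The dropped cells had medians of 3759 and 2103.5 UMIs, against 3785 and 2625 in kept cells. How many doublets remained was not tested. Seurat 5.3.0 was used to integrate both libraries and to form clusters (2000 variable genes without the members, 30 principal components, resolution 0.5), and clusters were named from at least 3 raised markers. Levels are summed UMIs as CPM. Intervals are exact (Poisson, Clopper-Pearson and conditional binomial, 95%). Ratios were compared for genes with at least 20 UMIs, with 2-fold as the call. For each member, the genes most alike were those with the highest lower correlation of both libraries, among genes with at least 50 UMIs in each. The ratios, co-detection and thinning were tested on simulated data. The members and lists were chosen with earlier results of these data known. Python 3.11.15 with numpy 2.4.6, scipy 1.17.1 and pandas 2.3.3 and R 4.3.3 were used. A gene and a sequence comparison that belong to the lists used are not reported here.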

Additional observations from a re-analysis of the deposited data

How the results depend on the processing

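Clusterings without doublet removal, with more than 200 genes per cell, with under 10% mitochondrial UMIs, at resolution 1.0, without integration and with the members among the clustering genes were tried. In each of these 6 and both libraries, *Foxc1*, *Foxc2* and *Irx1* were at least 2-fold higher and *Osr1* and *Foxl2* at least 2-fold lower in the cluster highest in *Foxc1* than in the one highest in *Osr1*. Those clusters were picked by *Foxc1* and *Osr1*, which fixes the direction of these genes but not of the other members. Limiting cells to at least 2000 UMIs moved the median mesenchymal share of the members in humdG to 86.9%. Subtracting the red blood cell-like level moved the median log2 ratio of humdG over humWT to 0.27. The subtracted level was higher in humWT for *Prrx1*, *Twist1*, *Foxc1* and *Foxl2*, as given above, and the cause of that was not tested. The other alternatives stayed within the counting interval of the member in the middle or, for pairs, the mean interval of the 2 in the middle. For co-detection that interval was wide, 0.65 to 1.80 in humWT and 0.50 to 2.44 in humdG, so staying within it does not show stability. The other log2 ratios lay from −0.02 to 0.10. Leaving out cells over 100000 UMIs, leaving out the cartilage-like cluster or unnamed cluster 15, the humWT cluster mix and thinning to 10000 UMIs were chosen after seeing the data. No paired analysis was possible because each genotype has 1 library and the labels give no replicate numbers. For the same reason no replicate could be left out. Depth limits *Foxc2* most, which had 368 UMIs in humdG.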
